A study of Mus musculus with 12 samples.

Results

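Mouse 3T3 cells given 100 nM Shld1 were compared with cells given 10 nM on 6 of the 12 arrays in the series, 3 for each dose, with doses taken from the labels. No transcript passed the test between the doses. The 3 control arrays and the 3 arrays at 1 µM do not enter the comparison. 3T3 is an established mouse fibroblast line. Each array carried RNA of treated cells in Cy5 and a commercial mouse reference RNA in Cy3, without a dye swap, so all values are log2 ratios of cells over reference. The log base was taken as 2 and the direction was taken from the dyes. Both groups received the same compound and differ, as far as the labels say, in dose only. The labels name no fusion protein, vehicle or length of treatment. They also leave unsaid whether the replicates come from cultures grown apart, so the p-values measure only the spread between these samples, which may be technical.

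Shld1 is a cell-permeable ligand made to fit an engineered form of FKBP12, the small cytosolic prolyl isomerase that FK506 and rapamycin bind in nature. Proteins fused to that engineered domain are degraded by the proteasome until the ligand is added, and raising the ligand raises the amount of the fusion. The compound is meant to act on the fusion and not on the cell's own FKBP12, so the comparison asks whether a higher dose leaves the transcripts of fibroblasts where a lower dose put them.

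The 10 nM replicate 3 array stood apart. Its profile correlated with the other 5 at 0.717 to 0.774, while the other 5 correlated with each other at 0.807 to 0.866, over 27888 probes with a value on all 6 arrays. By SD over probes the ratios also spread less at 10 nM, at 0.735 to 0.777 on the 3 arrays against 0.791 to 0.869 at 100 nM. Their median absolute deviations overlapped, at 0.633 to 0.66 at 10 nM and 0.654 to 0.716 at 100 nM. Each array gave values for 30649 to 33615 of the 38784 probes. The list mean of fibroblast markers lay above the reference on every array, at 1.04 to 1.18 at 10 nM and 1.01 to 1.37 at 100 nM. That of macrophage and leukocyte markers lay below it. Single members could differ from their list, such as the fibroblast marker Pdgfra with a mean of -0.86 at 10 nM and the leukocyte marker Spn with 0.48.

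Of 31426 probes tested in limma, 0 passed at an adjusted p under 0.05 (0% of probes and 0% of the 14832 genes, smallest adjusted p = 0.672 for probes and 0.51 for genes). At an unadjusted p under 0.05 there were 1632 probes where 1571 would be there by chance, 585 higher at 100 nM (1.86% of those tested) and 1047 lower (3.33%). The median size of the difference was 0.17 on the log2 scale and the median half-width of its 95% interval 0.51. For 78.9% of probes the whole interval stayed inside a 2-fold difference in both directions. Differences beyond 2-fold were estimated for 152 probes higher and 479 lower at 100 nM. Without 10 nM replicate 3 there were again 0 calls, with 573 probes higher and 948 lower at an unadjusted p under 0.05. Precision is limited by the 3 arrays per group.

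The balance of higher and lower probes differed with level. Probes were ordered by their mean ratio on the control and 1 µM arrays, which the comparison does not use, and divided into 10 bins of 2574 or 2575 probes. In the lowest bin, of transcripts scarce in these cells relative to the reference, the median difference was -0.11, with 30 probes higher and 181 lower at an unadjusted p under 0.05. In the highest bin it was 0.07, with 56 higher and 15 lower. Scaling the arrays to equal spread brought these medians to -0.05 and -0.01, and without 10 nM replicate 3 they were -0.03 and 0.06. The part of array spread in the values of single genes was not tested.

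**Figure D1:**
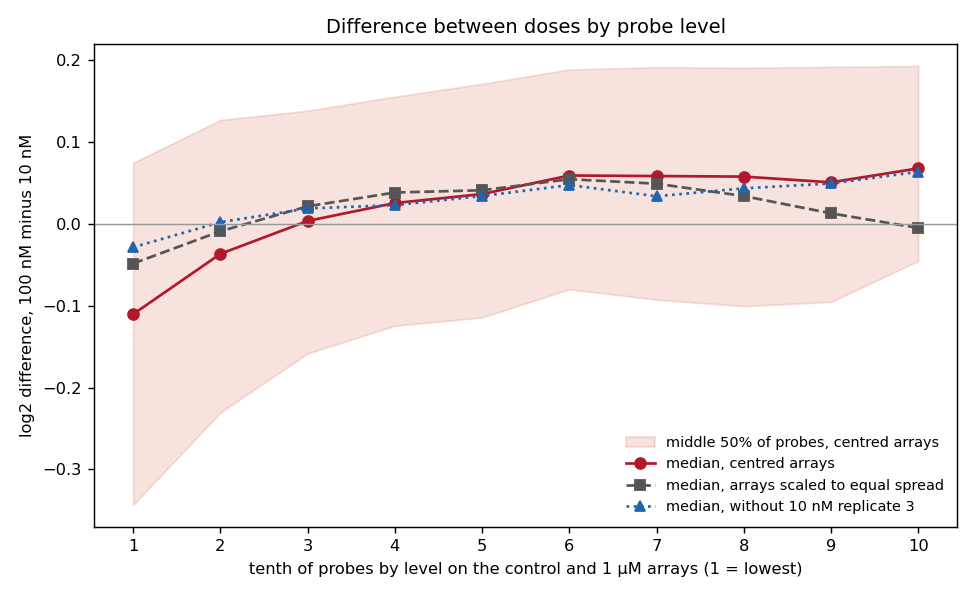
Log2 difference between 100 nM and 10 nM (y axis) in 10 bins of probes ordered by their level on the 6 arrays not compared (x axis); points are medians and the band holds the middle 50% of probes. The median goes from -0.11 in the lowest bin to 0.07 in the highest, and is closer to 0 in the lowest bin after scaling or without 10 nM replicate 3.

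Among genes higher at 100 nM and measured on all 6 arrays, Cnnm4, which encodes a membrane protein of the magnesium transporter family, had the smallest unadjusted p. Its ratios were 0.27, -0.50 and -1.18 at 10 nM and 1.72, 2.11 and 1.65 at 100 nM, a log2 difference of 2.29 (SE 0.35, 95% interval 1.47 to 3.12; adjusted p = 0.672 in limma). All 3 arrays at 100 nM lay above all 3 at 10 nM, and the lowest value was that of 10 nM replicate 3, without which the difference was 1.94. Nkd2, an antagonist of Wnt signalling that binds Dishevelled, was at -0.92, -0.59 and -0.71 at 10 nM and at 0.39, 0.44 and 0.10 at 100 nM. Its difference was 1.05 (SE 0.18), with tight groups on each side. Sox5, a transcription factor of the SRY-box family, was at 1.54, 0.74 and -0.30 at 10 nM and at 2.41, 2.33 and 2.39 at 100 nM, so its 10 nM arrays were wide and its 100 nM arrays narrow. Its difference was 1.72 (SE 0.42), and 4 further probes of the gene gave -0.03 to 0.93.

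Dusp10, a phosphatase that inactivates the stress kinases p38 and JNK, stood at 0.73 ± 0.08 (SD, n = 3) at 10 nM and 1.40 ± 0.12 (n = 3) at 100 nM, a difference of 0.67 (SE 0.16), with 0.37 on its other probe. Bin1, a membrane-bending protein with a BAR domain, differed by 1.25 (SE 0.29), but 3 other probes lay between -0.16 and 0.09. Zmiz1, a transcriptional co-regulator, differed by 1.02 (SE 0.24), with -0.01 and 0.17 on its others. The remaining higher genes were Aldh7a1, an aldehyde dehydrogenase of lysine breakdown, at 1.44 (SE 0.31), the zinc-finger gene Zfp108 at 1.16 (-0.25 on its other probe), the histone methyltransferase gene Prdm2 at 1.10, Epb41l4b at 1.06, Zfp169 at 0.88 and the giant muscle filament gene Neb at 0.75 (0.36 on its other).

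Among genes lower at 100 nM the smallest unadjusted p was that of Cd72, a coreceptor of B cells, which was at 0.10, -0.85 and -0.87 at 10 nM and at -2.78, -3.05 and -2.41 at 100 nM. Every 100 nM array lay far below the lowest 10 nM array, and the difference was -2.21 (SE 0.31, 95% interval -2.92 to -1.49; adjusted p = 0.672). Cd74, the invariant chain that guides MHC class II molecules, gave -0.08, 0.14 and -0.06 at 10 nM and -1.32, -0.94 and -1.19 at 100 nM on this probe. That is a difference of -1.15 (SE 0.18), whereas its other probe had -0.23. Cd209b, a lectin of the DC-SIGN family, was at 0.08, -0.34 and 0.92 at 10 nM and at -1.61, -1.80 and -1.63 at 100 nM, a difference of -1.90 (SE 0.31) and of -1.55 without 10 nM replicate 3.

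The other lower genes had varied roles. Vti1a, a SNARE of the Golgi, went from -1.72 ± 0.09 (SD, n = 3) to -2.99 ± 0.25 (n = 3), a difference of -1.27 (SE 0.18), but its 2 other probes were at 0.06 and 0.38. Csnk1g3, a casein kinase, went from 0.59 ± 0.11 (n = 3) to -0.46 ± 0.12 (n = 3), with -0.32 on its other probe. Both had narrow groups that did not overlap. The DNA damage recognition gene Xpa differed by -1.01 (SE 0.20), the thiamine triphosphatase gene Thtpa by -0.78 (SE 0.15), the endothelin receptor gene Ednrb by -1.21 (0.38 on its other probe) and the tight junction gene Tjp3 by -1.01 (-0.15 on its other). Rapsn, which anchors acetylcholine receptors, was at -1.32 (-0.52 on its other), Sprr2g of the cornified envelope at -1.38 and Nhsl1 at -1.14.

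All 24 of these genes had groups that did not overlap, which by their choice on the smallest p is a description. Among probes on all 6 arrays, 5.86% had 100 nM wholly above 10 nM and 4.62% wholly below. Of the 24, 9 of the 12 lower genes and 3 of the 12 higher ones lay in the lowest bin of levels on the arrays not compared. Further probes existed for 12 of the 24 genes, and 12 of these 19 probes shared the direction of the one named. The 24 signs held without 10 nM replicate 3.

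**Figure D2:**
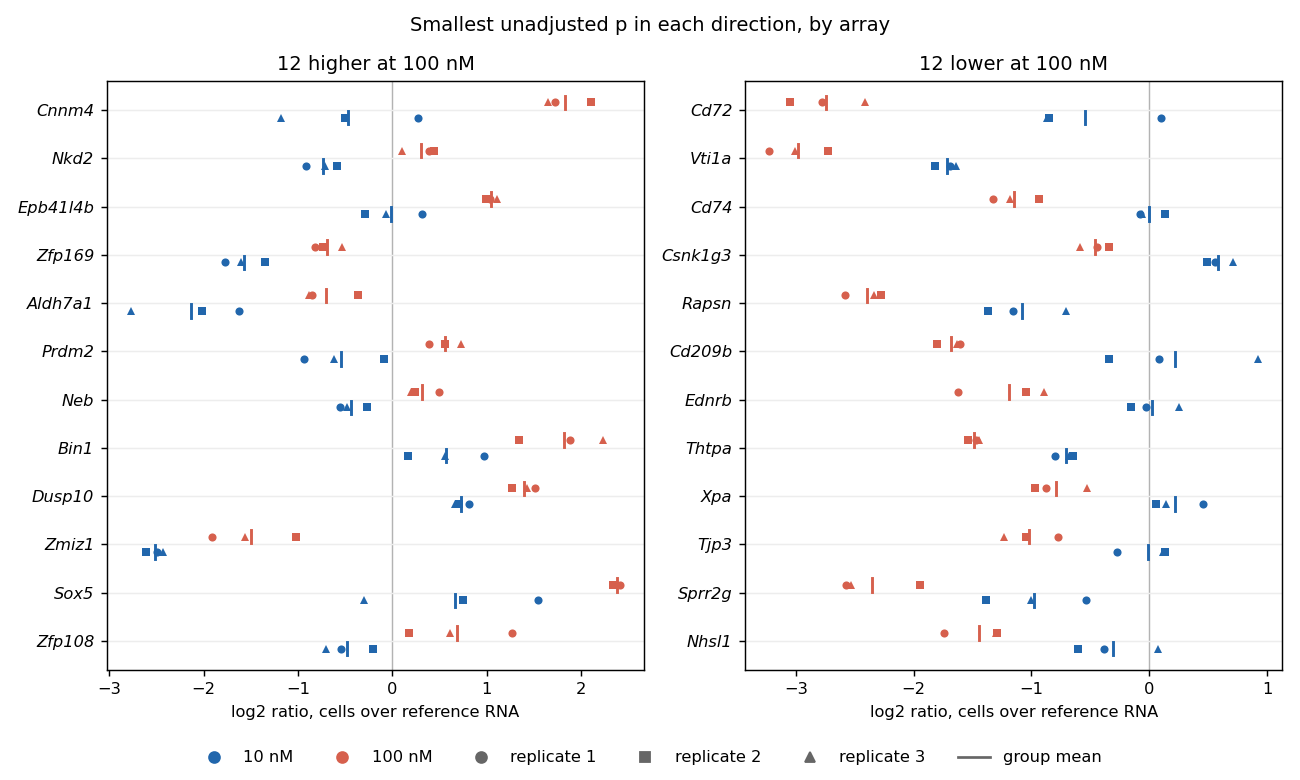
Log2 ratio of cells over reference (x axis) on each of the 6 arrays for the 12 higher and 12 lower genes named by smallest unadjusted p in each direction (y axis); symbols are replicates and bars are group means. The groups do not overlap for any of them, from Cnnm4 at a difference of 2.29 to Cd72 at -2.21, and none passed the adjusted test.

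The control and 1 µM arrays share no array with this comparison, so the difference between 1 µM and control can be set beside it, although all 12 arrays share the reference RNA. Over 25745 probes measured on all 12 arrays the 2 differences correlated at -0.162 across probes, which are not independent replicates, and 44% had the same sign. Among the 1034 of these probes with an unadjusted p under 0.05 between the doses, 37.7% had the same sign, with a correlation of -0.237. Of the 24 genes above, 14 had the same sign in both. Of the 24, Aldh7a1 and Cd209b had a value on only 1 array at 1 µM. Cd72 was at -0.03 and Cnnm4 at 0.02 between 1 µM and control, close to 0, while Xpa was at -1.14, Sox5 at 1.03 and Bin1 at -0.86.

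The 22 gene lists held 419 genes, of which 376 were measured. Of these, 0 passed in limma over all genes. At an unadjusted p under 0.05 there were 22 of 376 (5.85%), 7 higher and 15 lower, close to the share over all 14832 genes, of which 1.97% were higher and 3.27% lower. The 95% interval stayed inside a 2-fold difference for 335 of the 376 (89.1%), compared with 84.6% of all genes. The median difference of all genes was 0.02, with 54% of genes above 0, and the list medians below are to be read against it. Leaving out 1 array moved the median of 19 of the 22 lists by over 1.5 times, and of the 68 genes named from the lists 36 moved as much. Groups of arrays did not overlap in 6.41% (higher) and 4.58% (lower) of the genes on all 6 arrays. The lists were chosen with earlier results of these data known, so counts within them give no independent evidence.

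**Figure D3:**
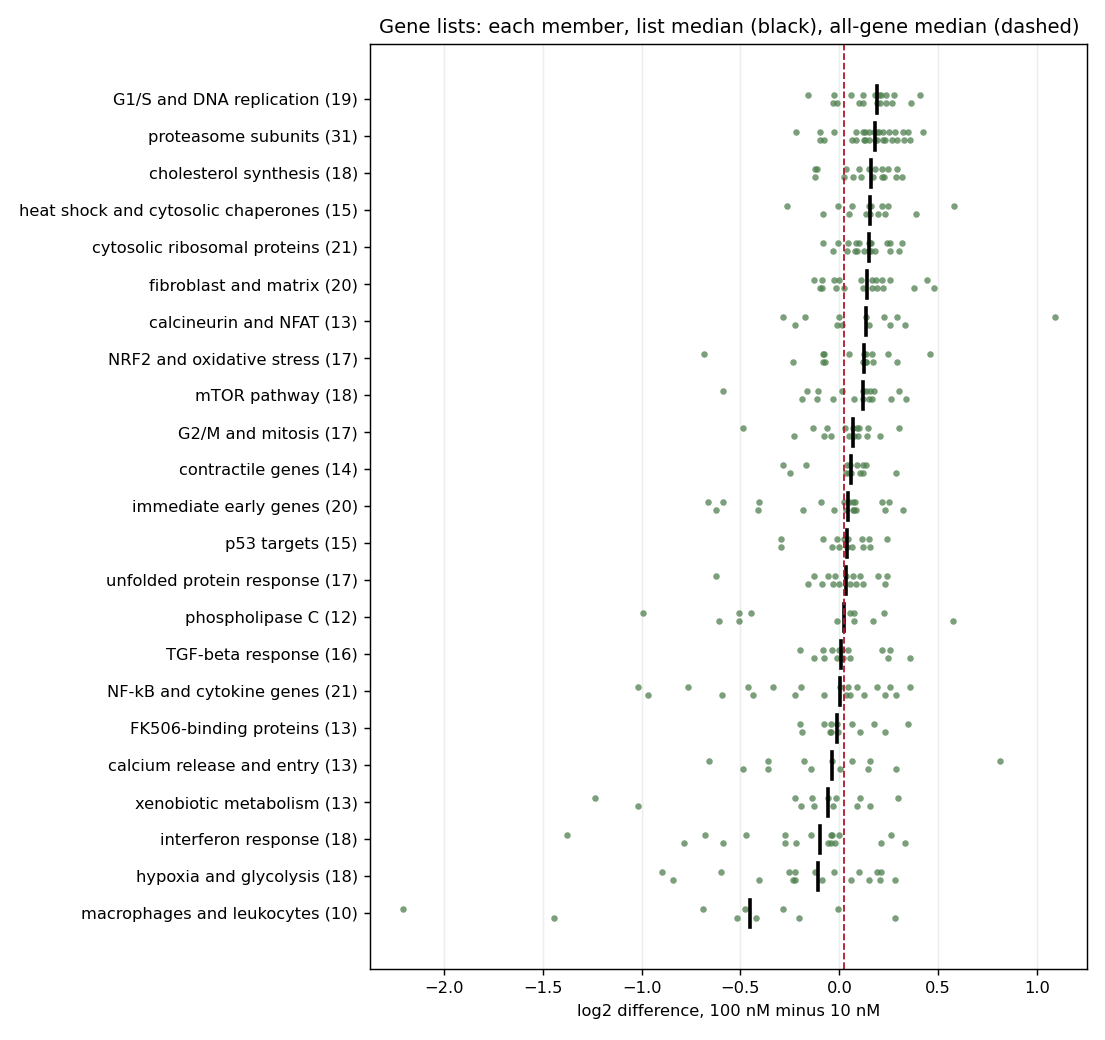
Log2 difference between 100 nM and 10 nM (x axis) for each measured member of the 22 gene lists and of the macrophage and leukocyte markers (y axis, number of genes in brackets), with list medians in black and the median of all genes dashed at 0.02. Medians run from -0.45 for the macrophage and leukocyte markers to 0.19 for G1/S and DNA replication.

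FK506-binding proteins, the family of the natural target, differed little, with a median of -0.01 over 13 members, 5 above 0 and 8 below, which turned to 0.05 without 10 nM replicate 1 and 0.03 without 100 nM replicate 2. The FKBP12 gene, Fkbp1a, was at 0.27, 0.52 and 0.31 at 10 nM and at 0.48, 0.42 and 0.53 at 100 nM, as the mean of 3 probes. The groups overlapped, and the difference was 0.11 (SE 0.14, 95% interval -0.22 to 0.44). Fkbp4, a cochaperone of HSP90 in steroid receptor complexes, was at 1.26, 1.02 and 1.17 at 10 nM and at 1.38, 1.15 and 1.11 at 100 nM, a difference of 0.06 (SE 0.15) that turned to -0.0038 with arrays scaled and -0.05 with quantile normalization and to -0.02 without 100 nM replicate 1. Fkbp5, a glucocorticoid-induced member, was at -0.71, -0.62 and -0.50 at 10 nM and at -0.81, -1.09 and -0.53 at 100 nM, a difference of -0.20 (SE 0.18). The members with the smallest p were Fkbp7 of the endoplasmic reticulum at 0.34 (SE 0.24, and 0.08 without 10 nM replicate 3), the mitochondrial Fkbp8 at -0.19 (SE 0.15) and Fkbp15 at 0.23 (SE 0.19). All 13 intervals stayed inside a 2-fold difference, and no member had groups that did not overlap.

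Lists of the signalling that FK506 and rapamycin reach through FKBP12 gave few large values. Calcineurin and NFAT genes had a median of 0.13 over 13 members, 8 above 0, and of 0.02 without 100 nM replicate 2. Rcan2, a calcineurin regulator, was at 1.40, 0.84 and -0.40 at 10 nM and at 1.95, 1.32 and 1.84 at 100 nM, a difference of 1.09 (SE 0.44) that was 0.58 without 10 nM replicate 3, the lowest array. Cabin1, a calcineurin inhibitor, differed by 0.29 (SE 0.17) and Rcan3 by -0.22 (SE 0.14). The mTOR pathway had a median of 0.12, with 12 of 18 above 0, which turned to -0.01 without 10 nM replicate 1. Its members with the smallest p were the mTOR inhibitor Deptor at -0.59 (SE 0.29), the Rag GTPase gene Rraga at 0.30 (SE 0.16) and the translation repressor gene Eif4ebp2 at 0.26 (SE 0.14).

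Calcium release and entry genes had a median of -0.04 over 13 members, which was 0.01 without 100 nM replicate 1 and -0.16 without 10 nM replicate 3. The inositol trisphosphate receptor gene Itpr2 was at -0.54, -0.51 and -0.42 at 10 nM and at -0.90, -0.75 and -0.91 at 100 nM, a difference of -0.36 (SE 0.13, adjusted p = 0.929). Ryr1, the ryanodine receptor of skeletal muscle to which FKBP12 is known to bind, differed by -0.36 (SE 0.14), from probes at -0.63 and -0.08. The pump gene Atp2a3 differed by -0.66 (SE 0.35). Phospholipase C genes, whose products make inositol trisphosphate, had a median of 0.02. At an unadjusted p under 0.05, 3 of 12 were lower and 1 higher, against 3.27% and 1.97% of all genes. The higher gene was Plcl2 at 0.58 (SE 0.23), with groups that overlapped, named after its values were seen. The phospholipase C median turned sign in 6 of 18 settings, and was -0.18 without 10 nM replicate 3 and 0.12 without 10 nM replicate 1. Plch1 was at 0.93, 1.11 and 1.05 at 10 nM and at 0.66, 0.30 and 0.31 at 100 nM, a difference of -0.61 (SE 0.16). Plcb4 was at -0.27, -0.29 and 0.28 at 10 nM and at -0.59, -0.71 and -0.48 at 100 nM. Its difference was -0.51 (SE 0.19), and -0.32 without 10 nM replicate 3, which lay apart from its group. Plcb4 was set for naming with earlier results of these arrays known, so it gives no independent evidence. Plcd3 differed by -0.51 (SE 0.20).

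Macrophage and leukocyte markers had the lowest median of the marker lists, -0.45 over 10 measured of 11, with 9 below 0 and 3 lower at an unadjusted p under 0.05 against a background of 3.27%. Their mean ratio lay between -0.66 and -0.48 on the 10 nM arrays and between -1.22 and -1.02 on the 100 nM arrays, so the groups did not overlap for the mean. The 3 members lower at an unadjusted p under 0.05 had the largest differences and are part of this mean, which was not taken without them. Nor did the groups overlap for the means of the interferon response, proteasome, cytosolic chaperone, G1/S and adipocyte lists, so this is not particular to these markers. Of the 10 single macrophage and leukocyte markers, 4 had groups that did not overlap, all lower at 100 nM, against 4.58% of genes on all 6 arrays. This list was chosen with earlier results of these data known, so its counts beside the shares of all genes give no independent evidence. Ptprc, the leukocyte antigen CD45, was at -1.93, -1.77 and -1.26 at 10 nM and at -2.64, -3.62 and -3.02 at 100 nM, a difference of -1.44 (SE 0.29, adjusted p = 0.672), and its 3 probes gave -1.60, -0.61 and -2.11. It was named after its values were seen. Cd72 and Cd74 are the other 2 of the 3, and Spi1, the myeloid transcription factor PU.1, was the member above 0, at 0.28 (SE 0.16). Itgam was at -0.01 and the macrophage gene Cd68 at -0.20 (SE 0.25). The median was -0.35 with 8 below 0 without 10 nM replicate 3, and -0.44 with 8 below 0 with arrays scaled to equal spread. In bulk RNA fewer cells of a type and less RNA per cell cannot be told apart. These samples are of a fibroblast line, and whether they held any leukocytes was not tested. Over all probes the median difference was -0.11 in the lowest bin of level and -0.04 in the next. It was 0.00 to 0.07 in the other bins. Most of the macrophage and leukocyte markers lay below the reference. Signal over background is unknown for such probes.

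The medians of the other marker lists were nearer 0, at 0.07 over 10 fibroblast genes, -0.08 over 9 epithelial, -0.05 over 5 endothelial, 0.04 over 7 adipocyte and 0.06 over 7 skeletal muscle genes. The adipocyte median was 0.18 without 10 nM replicate 3. Single members of these lists also had an unadjusted p under 0.05, against 3.27% lower and 1.97% higher of all genes. They were the epithelial Krt18 at -0.65 (SE 0.21), the muscle gene Mb at -0.59 (SE 0.20) and the adipocyte gene Adipoq at 0.65 (SE 0.17). These were named after their values were seen.

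Interferon response genes were mostly estimated lower at 100 nM, with a median of -0.10 and 15 of 18 below 0, or 13 with arrays scaled to equal spread. At an unadjusted p under 0.05, 5 were lower, against 3.27% of all genes, and none passed the adjusted test. The median kept its sign in all 18 settings tried for it, from -0.17 to -0.05, and was -0.06 without 10 nM replicate 1. Usp18, the protease that removes ISG15 and dampens interferon signalling, was at -0.10, -0.82 and 0.08 at 10 nM and at -2.04, -1.55 and -1.38 at 100 nM, a difference of -1.38 (SE 0.28, adjusted p = 0.696). Bst2 (tetherin), which holds budding virus on the cell surface, was at -1.38, -1.58 and -1.50 at 10 nM and at -2.60, -2.12 and -2.09 at 100 nM, a difference of -0.79 (SE 0.18). The groups did not overlap for either gene.

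Other members of the interferon list were nearer 0 or rested on some of their probes. Ifit3 averaged -0.59 (SE 0.18), from probes at -1.38 and 0.20, and -0.29 without 10 nM replicate 3. Mx2, which had a value on only 2 of the 100 nM arrays, was at -0.68 (SE 0.21) and Stat2, a subunit of the interferon-activated transcription factor, at -0.47 (SE 0.17), these 2 being named after their values were seen. The classic induced genes Isg15, Mx1, Rsad2 and Irf7 lay between -0.04 and -0.00, and the 3 members above 0 were the peptide transporter gene Tap1 at 0.33 (SE 0.30), Ifit2 at 0.26 and Oas2 at 0.21, the last from probes at 0.65 and -0.23. These members too were named after their values were seen. Between 1 µM and control the list median was 0.01, with 10 of 18 above 0.

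**Figure D4:**
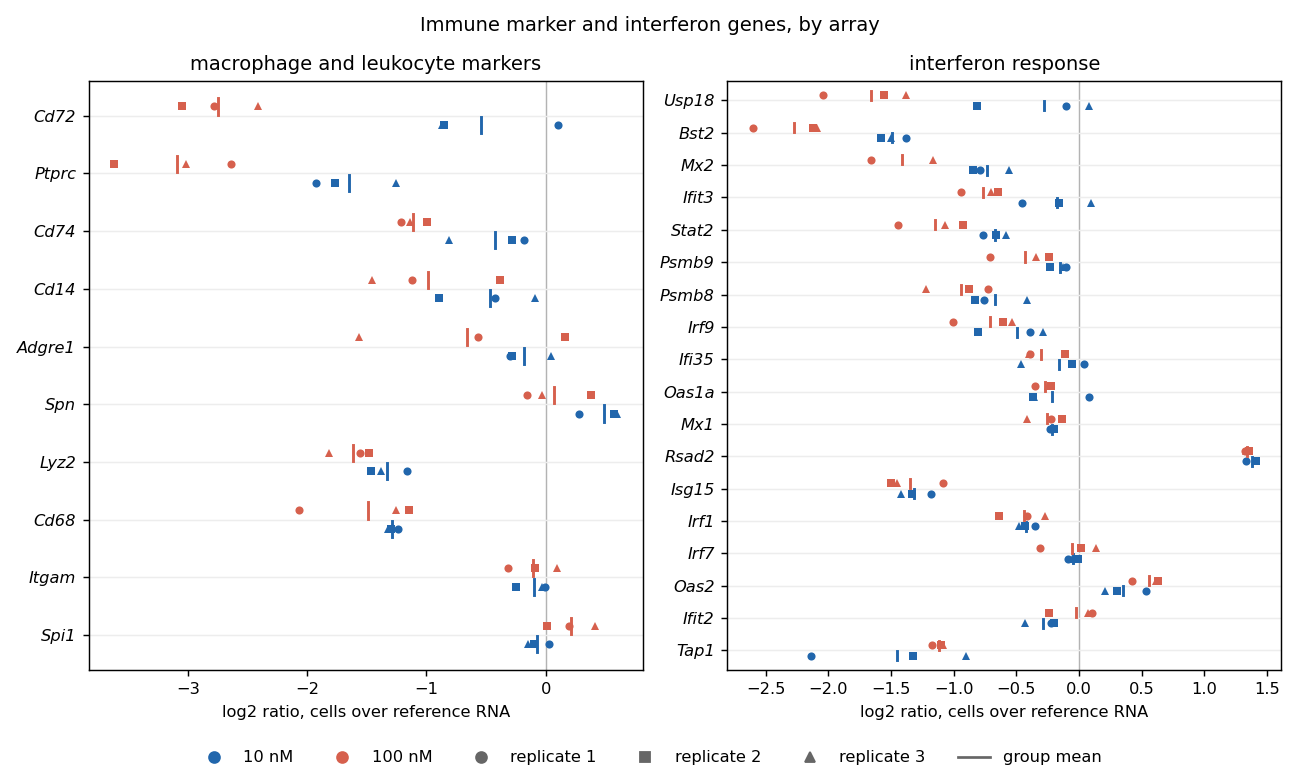
Log2 ratio of cells over reference (x axis) on each array for the 10 macrophage and leukocyte markers and the 18 interferon response genes (y axis); symbols are replicates and bars are group means. Cd72, Ptprc, Usp18 and Bst2 have 100 nM arrays wholly below 10 nM arrays, while Isg15, Mx1 and Rsad2 overlap.

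Among cytokine genes the median was 0.00 over 21 members and turned sign in 9 of 18 settings, with -0.08 without 10 nM replicate 3. Il6, the acute-phase cytokine, was at 1.42, 1.08 and 0.64 at 10 nM and, on the 2 arrays with a value, at 0.62 and 0.28 at 100 nM. Its difference was -0.59 (SE 0.27), with groups that nearly met. Il6 was set for naming with earlier results of these arrays known, so it gives no independent evidence. The chemokine gene Cxcl2 was at -1.26, -1.68 and -0.88 at 10 nM and at -2.20, -2.77 and -1.76 at 100 nM, a difference of -0.97 (SE 0.30), and Ccl5 differed by -0.77 (SE 0.32, and -0.49 without 10 nM replicate 3).

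Lists of housekeeping and growth genes lay slightly above the median of all genes. Proteasome subunits, of the machine that clears unliganded fusions of the engineered domain, had a median of 0.18 with 26 of 31 above 0. The labels do not say that these cells carried such a fusion. Psma7 of the core was at -0.24, -0.08 and 0.01 at 10 nM and at 0.21, 0.15 and 0.60 at 100 nM, a difference of 0.42 (SE 0.17), and the ATPase genes Psmc4 and Psmc5 differed by 0.35 (SE 0.15) and 0.36 (SE 0.18). Groups did not overlap for 6 higher subunits and 1 lower. G1/S and DNA replication genes had a median of 0.19 with 15 of 19 above 0. For 7 of the 19 the 100 nM arrays all lay above the 10 nM arrays. Over all genes on all 6 arrays, groups did not overlap in 6.41% (higher) and 4.58% (lower). Mcm4 of the replicative helicase was at 0.03, 0.22 and 0.19 at 10 nM and at 0.70, 0.36 and 0.47 at 100 nM (difference 0.36, SE 0.15), the licensing factor gene Cdc6 differed by 0.28 (SE 0.13) and the polymerase alpha gene Pola1 by 0.41 (SE 0.21).

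Ribosomal proteins had a median of 0.15 with 18 of 21 above 0, led by Rpl8 (0.32, SE 0.14), Rpl5 (0.26, SE 0.15) and Rpl19 (0.30, SE 0.18). The medians of these 3 lists kept their sign in the 18 settings, from 0.10 to 0.22. 10 nM replicate 3 was the lowest array for 14 of 31 proteasome genes, 10 of 20 ribosomal genes on all arrays and 7 of 18 replication genes, and without it the medians were 0.13, 0.11 and 0.15. 100 nM replicate 3 was the highest array for 13, 10 and 7 of the same genes, and without it the medians were 0.14, 0.10 and 0.16. Transcripts at the high levels where these genes lie had medians of 0.05 to 0.07 in the 5 highest bins, and the part of this in the list medians was not tested. Between 1 µM and control the proteasome median was -0.06 with 8 of 31 above 0, and the G1/S median -0.09 with 6 of 19 above 0.

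For cholesterol synthesis the median was 0.16, with 15 of 18 genes above 0, and this rested on 1 array. 100 nM replicate 3 held the highest of the 6 values for 17 of the 18 genes, and without it the median was -0.02. Their mean ratio was 0.73, 0.77 and 0.82 at 10 nM and 0.81, 0.63 and 1.25 at 100 nM, so 100 nM replicate 2 lay below every 10 nM array. Cyp51, the lanosterol demethylase, was at 0.79, 0.92 and 1.00 at 10 nM and at 0.99, 0.77 and 1.82 at 100 nM. Mvk (mevalonate kinase) differed by 0.32 (SE 0.17), Sqle (squalene epoxidase) by 0.29 (SE 0.18) and Nsdhl by 0.25 (SE 0.18), and no member had groups that did not overlap. Between 1 µM and control the median was -0.36 with 1 of 18 above 0.

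**Figure D5:**
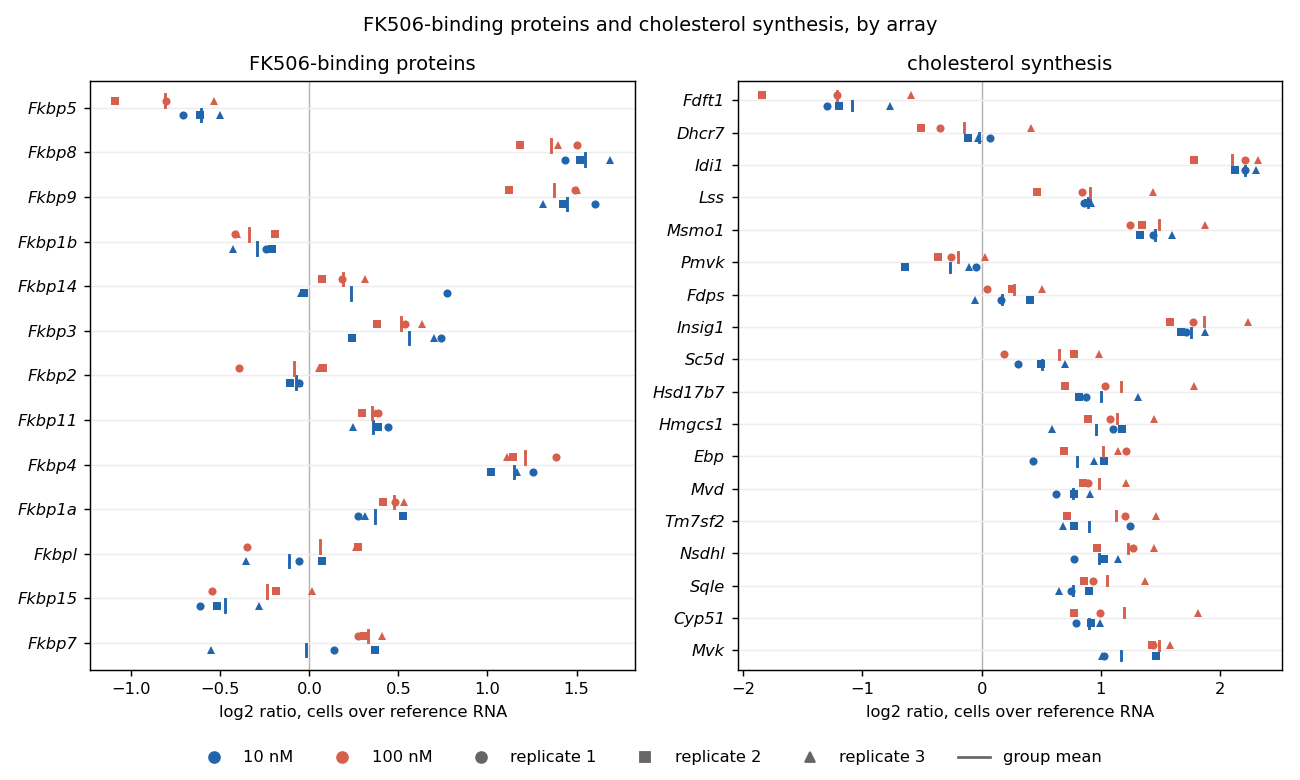
Log2 ratio of cells over reference (x axis) on each array for 13 FK506-binding proteins and 18 cholesterol synthesis genes (y axis); symbols are replicates and bars are group means. The FK506-binding proteins overlap throughout, and 100 nM replicate 3 is the rightmost point for 17 of the 18 cholesterol genes.

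Fibroblast and matrix genes had a median of 0.14 with 13 of 20 above 0, which was 0.09 with arrays scaled, 0.06 with quantile normalization and 0.07 without 100 nM replicate 3. Mmp2, a gelatinase, was at 1.33, 1.27 and 0.89 at 10 nM and at 1.55, 1.52 and 1.84 at 100 nM, a difference of 0.48 (SE 0.18). The protease inhibitor gene Timp1 differed by 0.44 (SE 0.22, and 0.22 without 10 nM replicate 3) and Vim (vimentin) by 0.21 (SE 0.14) over 14 probes. TGF-beta response genes had a median of 0.01, with Ltbp2 at 0.36 (SE 0.18), the receptor gene Tgfbr1 at 0.26 (SE 0.17) and Ccn2 at 0.21 (SE 0.15). Contractile genes had 0.06, with Acta2 at 0.29 (SE 0.22, and 0.10 without 10 nM replicate 3), Tagln at -0.17 (SE 0.16) and Lmod1 at -0.29 (SE 0.28).

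Of the stress lists, heat shock and cytosolic chaperones had a median of 0.16 with 12 of 15 above 0, and of 0.09 without 10 nM replicate 3. The small heat shock gene Hspb8 was at 0.80, 1.19 and 0.49 at 10 nM and at 1.46, 1.25 and 1.51 at 100 nM, a difference of 0.58 (SE 0.21), the HSP90 cochaperone gene Stip1 differed by 0.39 (SE 0.15) and Bag3 by 0.25 (SE 0.14). Unfolded protein response genes had 0.03, with Atf3 at -0.62 (SE 0.33), Asns at 0.23 (SE 0.21) and Creld2 at 0.12 (SE 0.14). NRF2 genes had 0.13, or 0.05 without 100 nM replicate 3, with the thioredoxin reductase gene Txnrd1 at 0.24 (SE 0.14), Txn1 at 0.46 (SE 0.27, and 0.78 without 10 nM replicate 3) and Gsta4 at 0.29 (SE 0.23, and 0.06 without it). The p53 targets had 0.04, with Mdm2 at -0.29 (SE 0.20), Trp53inp1 at -0.30 (SE 0.21) and Ei24 at 0.24 (SE 0.23).

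Hypoxia and glycolysis genes had a median of -0.11, which turned to 0.10 with quantile normalization and was -0.03 without 10 nM replicate 3. Car9, a carbonic anhydrase induced by low oxygen, was at -1.42, -1.19 and -0.98 at 10 nM and at -1.94, -2.52 and -1.82 at 100 nM, a difference of -0.90 (SE 0.22) from probes at -1.38 and -0.41. The oxygen sensor gene Egln3 differed by -0.84 (SE 0.29) and Bnip3 by -0.41 (SE 0.20), whereas the glycolytic genes Ldha and Gapdh were at 0.28 (SE 0.15) and 0.21 (SE 0.14). Groups did not overlap for any of these 5 genes, and the last 2 were named after their values were seen. Other genes of glycolytic enzymes in the list ran from the lowest, Pfkp at -0.24, to the highest, Pkm at 0.21. G2/M genes had a median of 0.07, which turned to -0.04 without 10 nM replicate 3 and to -0.01 without 100 nM replicate 2. The spindle kinase gene Ttk was at -0.49 (SE 0.20), Plk1 at 0.30 (SE 0.16) from probes at 0.62 and -0.01, and Cenpe at 0.20 (SE 0.16). Immediate early genes had 0.04, which turned to -0.07 without 100 nM replicate 2, with Dusp1 at -0.67 (SE 0.36, and -0.30 without 10 nM replicate 3) and Egr3 at 0.25 (SE 0.14), and xenobiotic genes -0.06, with Ahrr at -1.02 (SE 0.45, 2 arrays at 100 nM), Gsta1 at -1.23 (SE 0.82, 2 arrays in each group) and Aldh3a1 at -0.19 (SE 0.15).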

How the data were processed

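RNA of 3T3 cells and a reference RNA were hybridised together on 2-colour arrays. The deposited values are a log2 ratio per probe and array, taken as Cy5 over Cy3 from the dyes, per the labels; their log base, background correction, normalization and spot filters are unstated there. Scanner intensities were not analysed here. Array medians as deposited were -0.175 to -0.095, and each array was centred on its own. Of 38784 probes, 26173 had 1 symbol, 28 several and 12583 none in the platform annotation; 26027 had a gene identifier in the RefSeq table (GRCm38.p6), which left every symbol unchanged.

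A probe was tested where at least 2 of the 3 arrays of both groups had a value (7358 were left out) with limma 3.58.1 in R 4.3.3, on the 6 arrays with group as the only term, with Benjamini-Hochberg adjustment over all 31426 probes. The fit was first tested on simulated data. Genes were given the mean over those probes that all 6 arrays measured; a gene without such a probe took its most complete one. Genes were fitted and adjusted over all 14832. Genes named are the 12 higher and 12 lower with the smallest unadjusted p among probes with 1 symbol on all 6 arrays, passing over provisional symbols and immunoglobulin or T-cell receptor segments, up to 3 members of each list by p, and Fkbp1a, Fkbp4, Fkbp5, Plcb4 and Il6. The comparison and the lists were chosen with earlier results of these data known. The alternatives left out the centring, set all arrays to equal median absolute deviation, or used quantile normalization, other filters on blanks, fits of 9 or 12 arrays, the replicate number as a block, robust variance, array weights, 1 value per gene, a running median over 401 probe numbers for position, and leaving out each array. Plots used matplotlib 3.10.9 (Python 3.11.15).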

Additional observations from a re-analysis of the deposited data

How the results depend on the processing

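No probe was called under any of the 19 alternatives in limma, with smallest adjusted p values from 0.188 (without 10 nM replicate 1) to 0.909 (probes on all 6 arrays). The count at an unadjusted p under 0.05 stayed within 1.5 times of 1632, from 1239 to 2121, except with 1 value per gene, which tests fewer features (777 of 14832); leaving out an array gave 1458 to 1856. Without 100 nM replicate 3 it split into 390 higher and 1068 lower, and without 100 nM replicate 2 into 794 and 1026. The share of probes whose interval lay within a doubling either way was 78.9%. It was 85.2% for probes on all 6 arrays, 74.7% with a looser filter on blanks, 77.2% and 77% in fits of 9 and 12 arrays, 81% with array weights, 84.6% with 1 value per gene and 81.3% after the correction for position, and 69.4% to 75.8% without an array. The filters, the fits of other arrays and the left-out arrays change by construction which values enter, and for array weights and position the cause was not tested.

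The labels do not say that a replicate number marks a shared batch, and not every same-numbered pair correlated above 0.1 in its deviations (0.147, 0.024 and 0.125), so pairing was not used. As a hint from the data, 6 of 6 arrays correlated best with their own number (different numbers gave -0.155 to 0.015), and the array numbers in the titles are consecutive within a replicate number. With the number as a fixed replicate block, 2121 probes had an unadjusted p under 0.05, 0 were called and 81.7% of intervals lay within a doubling; as a random block these were 1931, 0 and 80.6%. Among the named genes, 6 values changed sign. Fkbp4 went from 0.06 to -0.0038 with arrays scaled, -0.055 with quantile normalization and -0.021 without 100 nM replicate 1 (-0.021 to 0.12 over all arrays left out). Ifit3 was 0.20 in the fits of 9 and of 12 arrays, the value of its second probe alone. Lmod1 was 0.033 without 10 nM replicate 2 (-0.49 to 0.033 over all arrays left out). The other 1669 values of named genes kept their direction and their side of the threshold. No signal over background could be computed from ratios, so values far below the reference carry an unknown error.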
